A study of Mus musculus with 4 samples.

Results

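The genes described here are Trp53, which encodes the transcription factor p53, and genes that control p53 or that p53 switches on directly. They were chosen by name, with earlier results of these data known, and 31 of the 32 names had a row among the 23312 genes measured. RNA was sequenced from B220+CD43+ pro-B cells sorted from the bone marrow of C57BL/6 mice. One genotype carried loxP-flanked Cnot3 alleles (Cnot3 fl/fl) and the other wild-type alleles (Cnot3 +/+). All mice of both genotypes carried RERTCre, a Cre recombinase induced by tamoxifen, and all received 1 mg tamoxifen on days 1, 2, 4 and 7 before the cells were taken on day 10. Each genotype had 2 libraries, described by the submitters as individual replicates. The age of the mice and the cells in which the Cre acts are not stated in the labels, and deletion in bone marrow cells outside the B lineage was not measured.

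p53 is a transcription factor that is kept scarce by the ubiquitin ligase Mdm2 and held inactive by its relative Mdm4. DNA damage and other stresses release it, and it then raises genes that halt the cell cycle, start cell death, repair DNA or restrain growth, together with Mdm2 itself, which closes a feedback loop. Pro-B cells cut and rejoin their immunoglobulin heavy chain genes and depend on this checkpoint. Cnot3 is a subunit of CCR4-NOT, the complex that removes poly(A) tails from mRNAs, and earlier work in early B cells linked it to the decay of p53 mRNA. The comparison therefore asks whether Trp53 and its targets differed between induced Cnot3 fl/fl and Cnot3 +/+ cells.

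Values are FPKM, fragments scaled by transcript length and by library, so levels can be compared between genes. How the libraries were scaled to each other is not stated. Between 14684 and 15126 genes were above 0 in a library, and the absolute depth is unknown. The value of Cnot3 over the whole gene was 39.0 and 40.3 FPKM in the Cnot3 fl/fl libraries and 41.6 and 39.3 FPKM in the Cnot3 +/+ libraries, and which exons are flanked by loxP sites is not stated in the labels, so it does not check them. Cnot3 +/+ replicate 1 stood apart in sex-linked RNA, with 29.3 FPKM of the Y-linked gene Eif2s3y against at most 0.0275 FPKM in the other 3 libraries. The summed level of 13 pro-B cell markers lay between 1095 and 1153 FPKM in Cnot3 fl/fl and between 1279 and 1527 FPKM in Cnot3 +/+ libraries, and 5 of them fell, among them Pax5, Cd79a, Vpreb1 and Igll1 (limma). Their median log2 fold change was -1.001, and 10 of the 13 were negative. The 3 positive ones, Ptprc, Dntt and Spn, were also the most abundant, at 0.17, 0.20 and 0.27, and none of them passed. The lower sum in Cnot3 fl/fl thus came from the 10 negative ones. That of 10 plasmacytoid dendritic cell markers was larger in every library, between 7753 and 9323 FPKM, with Siglech at 1115, 1331, 1456 and 1370 FPKM, and 1 of them, Cox6a2, fell. The 11 neutrophil and monocyte markers summed to 1529 and 1756 FPKM in Cnot3 fl/fl and to 1162 and 1445 FPKM in Cnot3 +/+ libraries, and 3 rose, Elane, Ctsg and Itgam, while 9 T and NK cell markers summed to between 906.1 and 1115 FPKM, and Cd8a and Cd5 rose. Erythroid markers were low, at 21.98 to 63.8 FPKM in sum, with none called. The share called was 38.5% of pro-B cell, 10% of dendritic cell, 27.3% of myeloid and 22.2% of T and NK cell markers. Over all tested genes it was 9.49% (6.22% higher and 3.28% lower). The most abundant tested markers were Ptprc, Dntt and Spn for pro-B cells, Bst2, Irf8 and Siglech for plasmacytoid dendritic cells, Ly6c2, Cybb and S100a9 for myeloid cells, Ccl5, Cd4 and Nkg7 for T and NK cells, and Hba-a1, Hbb-b1 and Alas2 for erythroid cells. None of the markers was at 0 in every library. RNA typical of several cell types was thus present, and in such bulk samples fewer cells of a type and less RNA per cell cannot be told apart, and the part of cell composition in the results was not tested.

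A minority of the p53 genes passed the test of a genotype difference, and Trp53, Mdm2 and Cdkn1a were not among them. With 2 libraries per genotype, not passing does not show that a gene was unchanged. Of the 28 genes with enough signal to test (averaging 1 FPKM or more), 4 rose (14.3%), none fell and 24 did not pass the test (limma on log2(FPKM + 1), Benjamini-Hochberg adjusted p under 0.05). Among all 11017 genes tested, 6.22% were called higher and 3.28% lower (9.49% in either direction), and 10 of the 28 had an unadjusted p under 0.05, against 3722 of all genes. The genes that rose were Phlda3, Xpc, Pml and Apaf1, with adjusted p-values between 0.046 and 0.050, just inside the threshold. The median log2 fold change of the 28 genes was 0.14, against -0.01 for all tested genes, and it was 0.04 without Cnot3 +/+ replicate 1. Both Cnot3 fl/fl libraries lay above both Cnot3 +/+ libraries in 11 of the 28 genes, against 32.7% of all tested genes, and below them in 8, against 31.7%. They overlapped in the other 9, while 64.4% of all tested genes did not overlap. The log2 fold change was positive in 17 and negative in 11 of the 28. With 2 libraries per genotype, permuting them exactly cannot bring 1 gene below p = 0.333, so the calls rest on the model fitted across all genes.

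**Figure D1:**
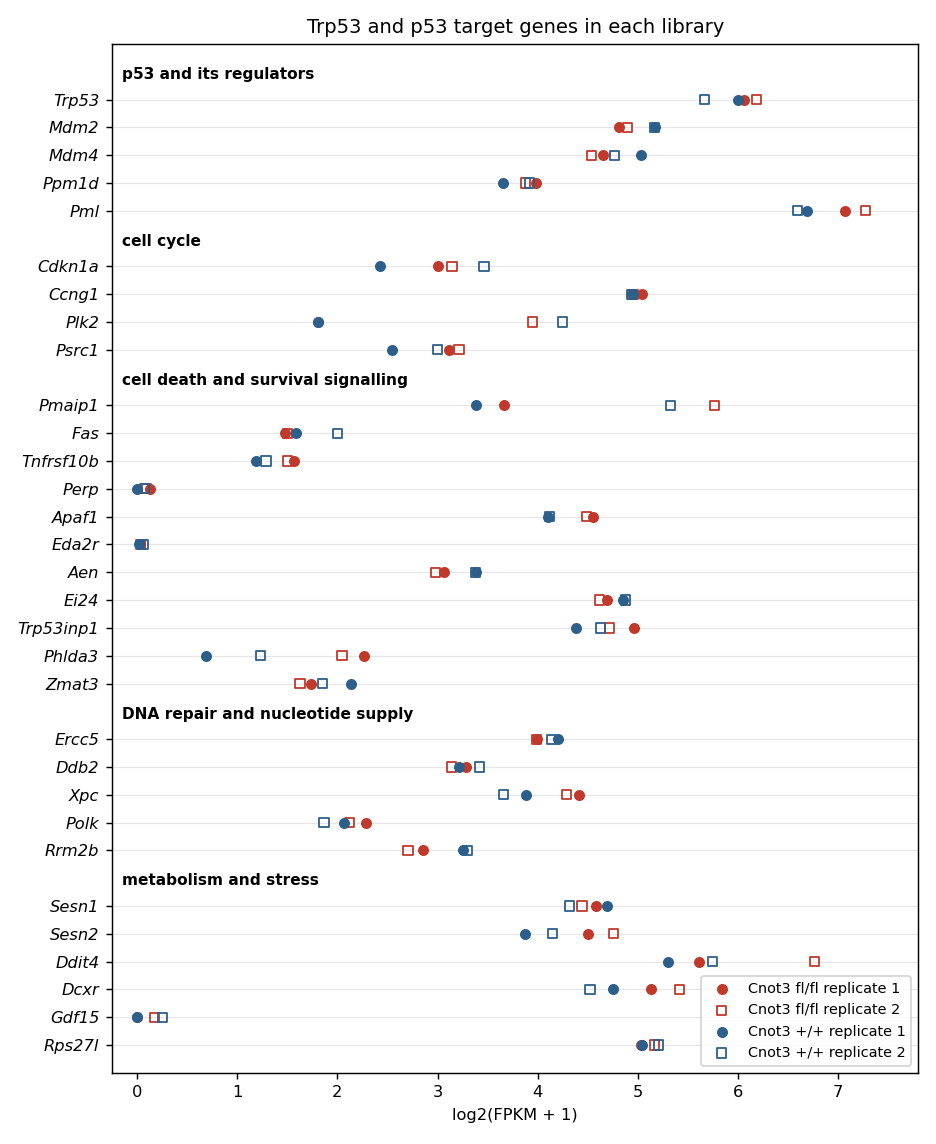
Level of each gene in each library, as log2(FPKM + 1), grouped by role, with Cnot3 fl/fl in red, Cnot3 +/+ in blue, circles for replicate 1 and open squares for replicate 2. Both Cnot3 fl/fl libraries lie above both Cnot3 +/+ libraries in 11 of the 28 tested genes, Pml, Apaf1, Phlda3 and Xpc among them. They lie below in 8, such as Mdm2. Over all tested genes these shares are 32.7% and 31.7%. Plk2 and Pmaip1 separate by replicate number, and Perp, Eda2r and Gdf15 lie near 0.

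All 4 rises were lost without the mean-variance trend and with no filter on low values. Calls over all genes also fell there, from 1046 to 311 and 5. The rises did not pass either with any single library left out. The lone library of a genotype then gives no spread of its own, and few genes of any kind passed. Xpc remained called in 7 of its 13 alternative analyses, Apaf1 in 6 of 13, Pml in 4 of 13 and Phlda3 in 4 of 12, and the sign of each stayed positive in all of them.

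p53 acts through a DNA sequence that pairs 2 copies of a 10-base unit, and the upstream sequence of the genes shows which carry one close to their start. The p53 response element was searched as a pair of units with a gap of up to 13 bases. The search covered the 250 bases before each start site of the RefSeq promoter table (GRCm38.p6), which held 24 of the genes by symbol. Xpc, which rose, and Pmaip1, Trp53inp1, Perp, Zmat3, Tnfrsf10b, Ddb2 and Rrm2b had no entry there and were not searched. Because the unit is its own reverse complement, one pass covers both strands. The C and G at the core of each unit had to match. At most 1 mismatch over both units was found for 4 of the 24 genes (16.7%), against 156 of 27025 genes in the table (0.577%), and with no mismatch for Cdkn1a alone, against 18 of all genes. As the genes were listed as regulators or direct targets of p53, the larger share can come from that choice. It says nothing about the genotypes. The limit of 1 mismatch was chosen after the matches were seen, and with 2 mismatches allowed Sesn1 was added, against 3.87% of all genes. These 4 windows are printed 5′ to 3′ because they hold the closest matches, with the best pair of units in capitals, and the window of Phlda3 because that gene had the largest change.
Cdkn1a: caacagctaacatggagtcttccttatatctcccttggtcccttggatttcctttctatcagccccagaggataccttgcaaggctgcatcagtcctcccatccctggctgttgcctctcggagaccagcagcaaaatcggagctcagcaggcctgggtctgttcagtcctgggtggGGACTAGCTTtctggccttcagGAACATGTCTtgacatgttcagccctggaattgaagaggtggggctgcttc
Ccng1: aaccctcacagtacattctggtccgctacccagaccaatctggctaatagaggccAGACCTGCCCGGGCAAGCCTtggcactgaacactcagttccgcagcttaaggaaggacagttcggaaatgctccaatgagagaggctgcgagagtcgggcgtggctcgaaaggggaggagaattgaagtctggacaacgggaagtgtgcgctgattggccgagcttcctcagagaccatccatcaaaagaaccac
Pml: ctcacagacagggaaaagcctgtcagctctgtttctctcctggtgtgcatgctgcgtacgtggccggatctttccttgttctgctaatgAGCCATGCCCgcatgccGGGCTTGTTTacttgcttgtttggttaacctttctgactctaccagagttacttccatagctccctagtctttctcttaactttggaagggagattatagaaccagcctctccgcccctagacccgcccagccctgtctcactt
Rps27l: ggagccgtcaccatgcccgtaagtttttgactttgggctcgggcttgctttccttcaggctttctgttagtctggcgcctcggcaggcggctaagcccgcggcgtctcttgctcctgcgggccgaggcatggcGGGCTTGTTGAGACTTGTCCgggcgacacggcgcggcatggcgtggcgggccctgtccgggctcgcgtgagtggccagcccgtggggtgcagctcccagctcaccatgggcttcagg
Phlda3: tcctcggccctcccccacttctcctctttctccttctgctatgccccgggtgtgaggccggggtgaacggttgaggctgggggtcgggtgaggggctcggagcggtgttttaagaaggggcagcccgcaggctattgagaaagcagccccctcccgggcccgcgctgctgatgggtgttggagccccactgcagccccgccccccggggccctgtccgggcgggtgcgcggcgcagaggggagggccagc
The Cdkn1a window is chr17:29090729-29090978 on the plus strand, ahead of the upstream one of its 2 start sites in the table, and its best pair begins 73 bases before that start. The downstream unit of that pair forms a pair with 1 mismatch with the bases that follow it directly, 51 bases before the start. The Ccng1 window is chr11:40755287-40755536 on the minus strand, with the units adjoining and beginning 195 bases before the start. In Pml (chr9:58249787-58250036, minus strand) the element begins 161 bases before the start and in Rps27l (chr9:66946163-66946412, plus strand) 117 bases before it. That start of Rps27l lies downstream of the gene's other start in the table. No pair with fewer than 5 mismatches was found in the Phlda3 window (chr1:135765835-135766084, plus strand), and sequence outside it was not searched. Of the 4 genes with a close match Pml rose, whereas Cdkn1a, Ccng1 and Rps27l did not pass. Phlda3, printed because of its rise, had no such match in its window.

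Trp53 itself was at 65.4 and 71.9 FPKM in the Cnot3 fl/fl libraries, replicates 1 and 2 in that order as throughout. The Cnot3 +/+ libraries had 62.9 and 49.6 FPKM. The Cnot3 fl/fl libraries were the higher pair, but Cnot3 +/+ replicate 1 lay close below them. The log2 fold change was 0.29 with a 95% interval from -0.07 to 0.65 (limma, adjusted p = 0.21), which includes 0. It was 0.12 to 0.46 with single libraries left out. In the files' mm9 coordinates the gene spans chromosome 11 from 69393860 to 69405375. Wrap53, which overlaps its start on the opposite strand, had 14.3 and 13.7 FPKM in Cnot3 fl/fl cells and 12.5 and 13.5 FPKM in the controls, and whether counting used strand is not stated, so reads of the overlap cannot be told apart.

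The 2 genes that restrain p53 directly had lower values in Cnot3 fl/fl cells. Mdm2, the ubiquitin ligase that p53 also induces, had 27.1 and 28.9 FPKM in Cnot3 fl/fl cells, whereas the Cnot3 +/+ values were 35.1 and 34.9 FPKM. The genotypes did not overlap, and the log2 fold change was -0.31 with an interval from -0.51 to -0.11, yet the adjusted p was 0.068 (limma). After quantile normalization it passed, with an adjusted p of 0.048, in a range of 0.048 to 0.29 over its alternatives. Mdm4, which blocks p53 without destroying it, was at 24.1 and 22.2 FPKM against 31.6 and 26.2 FPKM, a log2 fold change of -0.31 (adjusted p = 0.15). Ppm1d, a phosphatase that switches off DNA damage signalling, overlapped between genotypes, at 14.9 and 13.7 FPKM against 11.6 and 14.1 FPKM.

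Pml, the scaffold of nuclear bodies that help activate p53, was the most abundant of the 31 genes and rose. It was at 132.6 and 153.7 FPKM in the libraries from Cnot3 fl/fl mice, compared with 101.8 and 95.3 FPKM in those from Cnot3 +/+ mice. Means and SDs over the 2 libraries were 143.2 ± 14.9 FPKM and 98.5 ± 4.61 FPKM, and the log2 fold change was 0.53 (limma adjusted p = 0.0497). The call was lost with a pseudocount of 5 (adjusted p = 0.051) and in the authors' deposited table its q-value was 0.18.

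Genes of cell-cycle arrest did not pass the test. Cdkn1a, which encodes the cyclin-dependent kinase inhibitor p21, the best known target of p53, had 7.05 and 7.84 FPKM in the Cnot3 fl/fl pair. In Cnot3 +/+ replicates 1 and 2 it was at 4.38 and 10.0 FPKM, below and above both. Its log2 fold change was 0.13 with an interval from -0.80 to 1.06, and -0.39 without Cnot3 +/+ replicate 1. Ccng1, encoding cyclin G1, overlapped between genotypes, at 31.9 and 29.9 FPKM against 30.0 and 29.7 FPKM, with an interval of the log2 fold change from -0.15 to 0.25. Psrc1, a spindle microtubule gene, was at 7.67 and 8.28 FPKM against 4.82 and 7.00 FPKM (log2 fold change 0.39, adjusted p = 0.20).

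Plk2, a kinase gene of early G1, and Pmaip1, which encodes the BH3-only death protein Noxa, differed more between replicate numbers than between genotypes. Plk2 was at 2.51 FPKM in replicate 1 of both genotypes, and replicate 2 had 14.4 FPKM in Cnot3 fl/fl cells and 18.0 FPKM for Cnot3 +/+ cells. Pmaip1 had 11.7 and 53.3 FPKM in Cnot3 fl/fl replicates 1 and 2, and the corresponding Cnot3 +/+ libraries had 9.43 and 39.0 FPKM. Between same-numbered libraries the ratio of Cnot3 fl/fl to Cnot3 +/+ was 1.24 and 1.36 for Pmaip1 and 0.999 and 0.804 for Plk2. When the 11017 tested genes were ordered by the smaller of their replicate 2 minus replicate 1 differences in the 2 genotypes, Plk2 ranked 8 and Pmaip1 ranked 13. The immediate-early genes Atf3, Dusp1, Egr1 and Fos, named after their values were seen, ranked 2, 10, 12 and 29. Fos had 403.4 and 1162 FPKM in Cnot3 fl/fl cells, whereas the Cnot3 +/+ values were 399.1 and 1037 FPKM. What sets the replicate numbers apart was not tested. The intervals of the genotype difference were wide, from -2.93 to 2.63 for Plk2 and from -2.09 to 2.81 for Pmaip1.

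**Figure D2:**
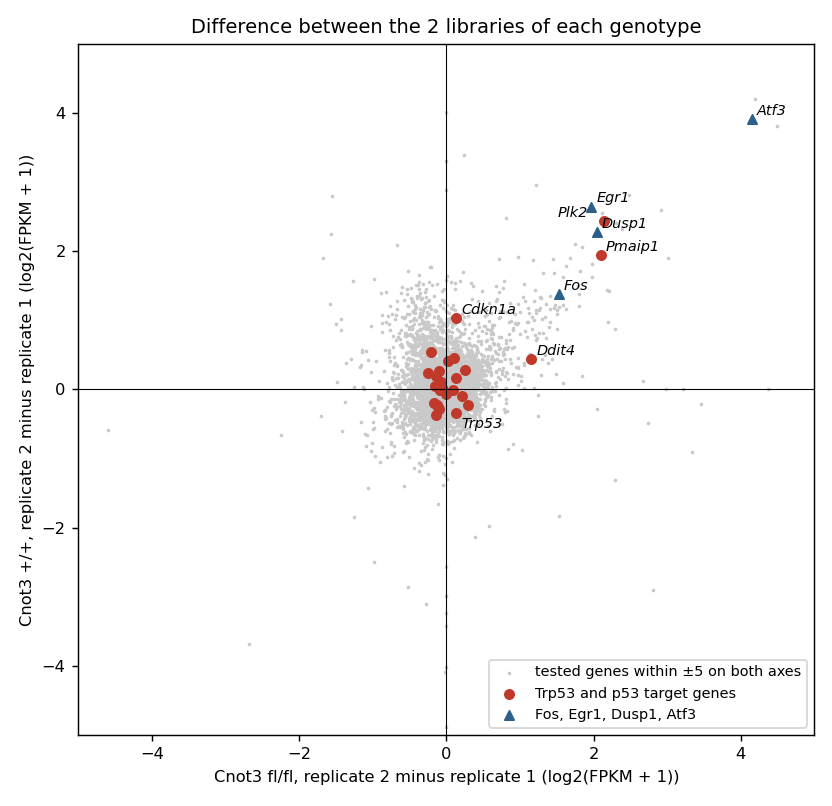
Difference between the 2 libraries of each genotype on the log2(FPKM + 1) scale, Cnot3 fl/fl on the horizontal and Cnot3 +/+ on the vertical axis, for tested genes (grey), the p53 genes (red) and 4 immediate-early genes (blue triangles). Plk2 and Pmaip1 sit far out on the diagonal beside Egr1 and Dusp1, at 2.14 and 2.10 in Cnot3 fl/fl, while most other p53 genes, Trp53 among them, lie near the centre.

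Of 9 tested genes of cell death and survival signalling, 2 rose, none fell and 7 did not pass. That is 22.2% called among few genes, against 9.49% of all tested genes. Phlda3, whose product represses the survival kinase Akt, showed the largest fold of the 28 tested genes. It was at 3.80 and 3.13 FPKM in the libraries from Cnot3 fl/fl mice, compared with 0.611 and 1.35 FPKM in those from Cnot3 +/+ mice. Means and SDs over the 2 libraries were 3.46 ± 0.469 and 0.980 ± 0.522 FPKM, a 3.53-fold rise or 1.19 on the log2 scale used in the test (limma, adjusted p = 0.049). It cleared the minimum of 1 FPKM through the Cnot3 fl/fl libraries, and its log2 fold change was 0.92 without Cnot3 +/+ replicate 1 and 0.50 with a pseudocount of 5. The authors' deposited table marked it as significant, with a q-value of 0.011.

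Apaf1, the core of the apoptosome that activates caspases, rose by a small and even amount. It had 22.4 and 21.4 FPKM in Cnot3 fl/fl cells, whereas the Cnot3 +/+ values were 16.2 and 16.4 FPKM. The ratio of means was 1.35 (log2 fold change 0.41, interval 0.20 to 0.61, limma adjusted p = 0.046), and the authors' deposited table gave a q-value of 0.20. Aen and Ei24 had lower values in Cnot3 fl/fl cells without passing. The exonuclease gene Aen had 7.34 and 6.87 FPKM against 9.44 and 9.38 FPKM, with an adjusted p of 0.076, and Ei24, an endoplasmic reticulum gene, had 24.8 and 23.5 against 27.8 and 28.4 FPKM (adjusted p = 0.13). In both the genotypes did not overlap, with log2 fold changes of -0.36 and -0.21.

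The death receptor genes were low. Fas was at 1.78 and 1.83 FPKM in the libraries from Cnot3 fl/fl mice, compared with 2.00 and 3.01 FPKM in those from Cnot3 +/+ mice, and Tnfrsf10b, the TRAIL receptor gene, at 1.97 and 1.84 against 1.28 and 1.44 FPKM. Neither passed (adjusted p = 0.32 and 0.23). Trp53inp1, a stress-induced regulator of p53 activity and autophagy, had 30.2 and 25.3 against 19.9 and 23.7 FPKM, with an adjusted p of 0.16. Zmat3, an RNA-binding protein gene, had 2.33 and 2.09 against 3.40 and 2.62 FPKM, with an adjusted p of 0.24, and its locus is merged with that of 4930429B21Rik in the authors' table. Perp, a membrane protein gene, and the ectodysplasin receptor gene Eda2r reached at most 0.0958 and 0.0440 FPKM in any library and were not tested.

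Among 5 genes of DNA repair and nucleotide supply, the damage sensor gene rose and the other 4 did not pass. That is 20% called among few genes, against 9.49% of all tested genes. Xpc, which recognises distorted DNA in nucleotide excision repair, had 20.3 and 18.5 FPKM in Cnot3 fl/fl cells, whereas the Cnot3 +/+ values were 13.7 and 11.6 FPKM. All Cnot3 fl/fl values were higher, by 1.48-fold between replicates 1 and 1.59-fold between replicates 2 (log2 fold change 0.58, interval 0.28 to 0.88, limma adjusted p = 0.048). The authors' deposited table gave Xpc a q-value of 0.057. Ddb2, which works beside Xpc in damage recognition, was at 8.72 and 7.79 against 8.29 and 9.67 FPKM and overlapped between genotypes. Its locus is merged with Acp2 in the authors' table. Ercc5, the endonuclease of the same pathway, had 14.9 and 14.8 against 17.4 and 16.6 FPKM, with an adjusted p of 0.19.

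Rrm2b, the p53-inducible subunit of ribonucleotide reductase, had the most negative log2 fold change of the 28 genes. It was at 6.24 and 5.52 FPKM in the libraries from Cnot3 fl/fl mice, compared with 8.57 and 8.86 FPKM in those from Cnot3 +/+ mice. The log2 fold change was -0.50 with an interval from -0.78 to -0.22, and the adjusted p was 0.055 (limma) and 0.048 with robust eBayes. Polk, a translesion polymerase gene, had 3.87 and 3.36 against 3.19 and 2.65 FPKM, with an adjusted p of 0.31.

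Genes that tie p53 to growth control and metabolism had some of the larger ratios without passing the test. Sesn2, which restrains the growth kinase complex mTORC1 when nutrients are short, had 21.7 and 25.96 FPKM in Cnot3 fl/fl cells, whereas the Cnot3 +/+ values were 13.6 and 16.8 FPKM. Its log2 fold change was 0.62 (limma adjusted p = 0.063), with 0.047 under robust eBayes, and the authors' deposited table marked it with a q-value of 0.043. Its relative Sesn1 overlapped between genotypes, at 22.9 and 20.7 against 24.8 and 19.0 FPKM. Dcxr, a carbonyl reductase gene, was at 34.0 and 41.7 against 25.97 and 21.97 FPKM (log2 fold change 0.63, adjusted p = 0.058, and 0.044 with robust eBayes).

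Ddit4, another brake on mTORC1, was at 47.9 and 107.9 FPKM in the libraries from Cnot3 fl/fl mice, compared with 38.5 and 52.5 FPKM in those from Cnot3 +/+ mice. Only Cnot3 fl/fl replicate 2 stood clear of the rest, and the log2 fold change of 0.67 had an interval from -0.40 to 1.74 (limma adjusted p = 0.31), and it was 0.09 without that library. The authors' deposited table nonetheless marked Ddit4 with a q-value of 0.0022. Together with Phlda3 and Sesn2 it made 3 of the 28 genes marked there, against 6.64% of the genes tested here and 3.44% of all genes in that table. Rps27l, a ribosomal protein gene induced by p53, was at 31.8 and 34.9 against 32.01 and 36.0 FPKM, and its value is uncertain because reads may be shared with its close copy Rps27. The cytokine gene Gdf15 reached at most 0.190 FPKM, was listed at 0 in replicate 1 of both genotypes and was not tested. Tigar has no row under that name and is in none of the expression counts of the p53 genes, but its promoter was among the 24 searched. Its older symbol in RefSeq, 9630033F20Rik, had 4.91 and 4.46 FPKM in Cnot3 fl/fl cells. The Cnot3 +/+ values were 5.84 and 4.99 FPKM (log2 fold change -0.17, limma adjusted p = 0.39).

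**Figure D3:**
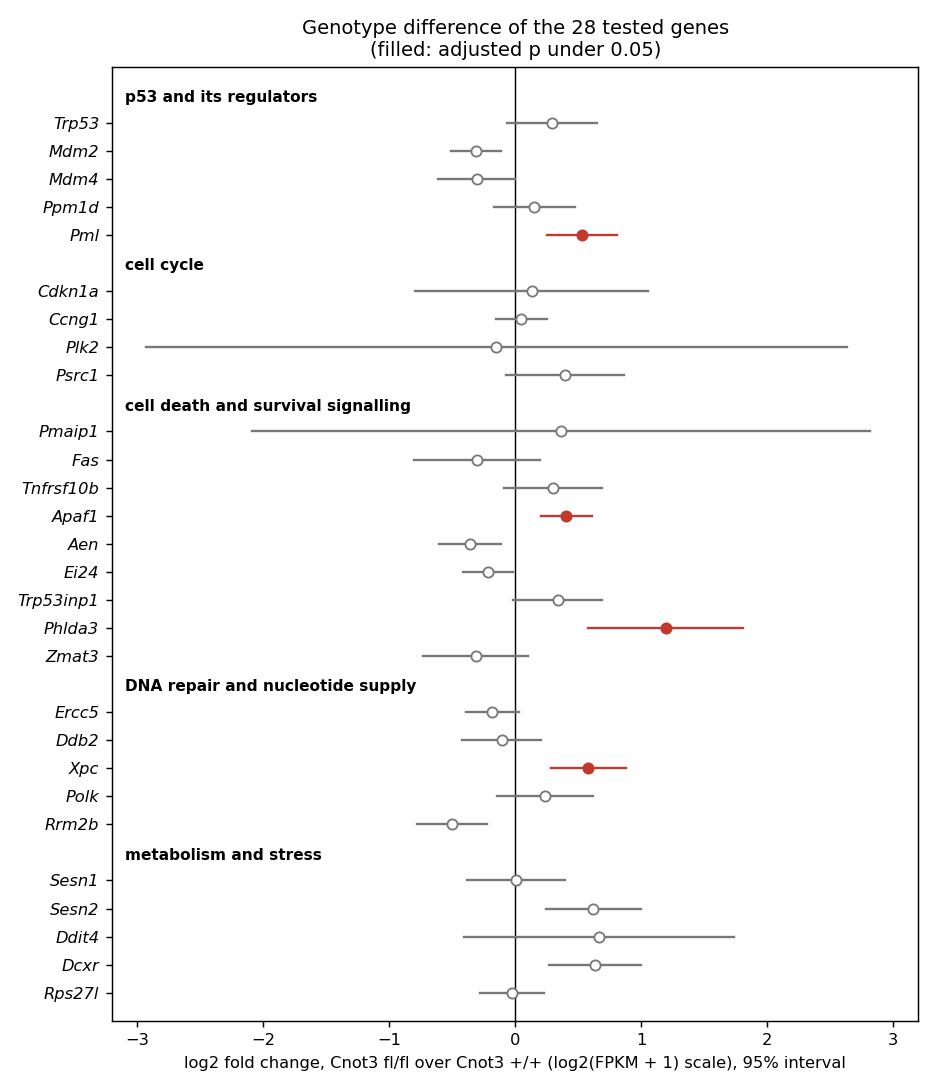
Log2 fold change of the 28 tested genes, Cnot3 fl/fl over Cnot3 +/+ on the log2(FPKM + 1) scale, with 95% intervals from limma, grouped by role. The 4 genes with an adjusted p under 0.05 are filled and lie between 0.41 and 1.19, and the intervals of Plk2 and Pmaip1 reach beyond 2 in both directions.

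Other genes of the pathway were taken from 3 lists, and their calls stand beside the 9.49% of all tested genes called in either direction. Of 26 tested (32 listed) kinases and modifiers upstream of p53, 1 rose, none fell and 25 did not pass (3.85% called), with a median log2 fold change of -0.08. Daxx, a histone chaperone gene whose product resides in Pml nuclear bodies, rose from 39.3 and 41.0 FPKM in Cnot3 +/+ to 64.4 and 65.6 FPKM in Cnot3 fl/fl libraries. Its log2 fold change was 0.68 (limma adjusted p = 0.027), and the authors' deposited table gave a q-value of 0.021. The methyltransferase gene Setd8, the kinase gene Hipk2 and the acetyltransferase gene Kat5 came next and did not pass, at -0.53, -0.35 and 0.29 in log2 fold change, with adjusted p-values of 0.060, 0.071 and 0.072. Rpl11, a ribosomal protein that binds Mdm2 and was named after its values were seen, was at 17.8, 14.5 and 12.8 FPKM in 3 libraries and 0.595 FPKM in Cnot3 +/+ replicate 2.

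Among 38 tested further targets of p53 (46 listed), 2 rose, 2 fell and 34 did not pass (10.5% called, near the share of all tested genes), with a median of -0.07. The stress-response gene Ndrg1 rose from 12.99 and 12.2 FPKM to 27.0 and 26.6 FPKM (log2 fold change 1.04, limma adjusted p = 0.020), and the lipase gene Abhd4 from 20.5 and 18.0 to 33.0 and 38.1 FPKM (adjusted p = 0.036). Trp53i11 was among those that fell, from 102.9 and 105.1 to 64.2 and 74.2 FPKM (limma, adjusted p = 0.042). Ptp4a3 and Ulk2 missed the threshold, at -0.45 and -0.31 in log2 fold change, with adjusted p-values of 0.055 and 0.088. The death genes Bax and Bbc3, named after their values were seen, were at 99.7 and 93.8 against 89.2 and 82.5 FPKM and at 17.9 and 29.9 against 10.7 and 17.3 FPKM. Neither passed (adjusted p = 0.23 and 0.19), although the authors' deposited table gave Bbc3 a q-value of 0.027.

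Of 20 cell-cycle genes that active p53 lowers, none rose or fell in limma, none had an unadjusted p under 0.05, and the median log2 fold change was -0.25. The genotypes overlapped in 19 of the 20, whereas 64.4% of all tested genes did not overlap. The mitotic kinase gene Cdk1 was at 5.49 and 4.31 FPKM in the libraries from Cnot3 fl/fl mice, compared with 5.03 and 15.0 FPKM in those from Cnot3 +/+ mice. Top2a, the topoisomerase gene of dividing cells, was at 23.2 and 17.1 against 19.8 and 58.2 FPKM. In both genes Cnot3 +/+ replicate 2 was the high library and replicate 1 lay among the Cnot3 fl/fl values, yet the authors' deposited table marked Cdk1, Top2a and Birc5, with q-values of 0.010, 0.0022 and 0.024. Foxm1 and Ccnb1 had adjusted p-values of 0.24 and 0.33 in limma.

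**Figure D4:**
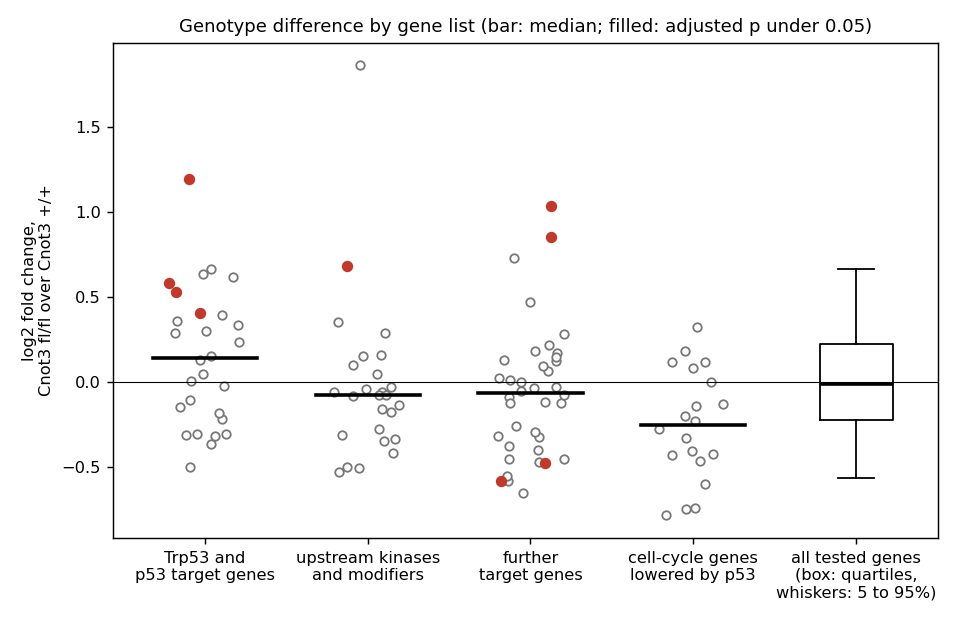
Log2 fold change, Cnot3 fl/fl over Cnot3 +/+, of each tested gene in the 4 lists, with the list's median as a bar and genes with an adjusted p under 0.05 filled, beside the distribution of all tested genes (box of quartiles, whiskers at 5 and 95%). The medians are 0.14, -0.08, -0.07 and -0.25, and the filled genes number 4, 1, 4 and 0.

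Since CCR4-NOT acts on the 3′ ends of mRNAs, sequence features of the transcripts were counted in GENCODE M21 (GRCm38), 1 coding transcript per gene. The 3′ untranslated regions of the 28 tested genes had a median length of 1200 bases, against 988 bases over 10019 tested genes with a transcript. The AU-rich nonamer TTATTTATT, a known decay signal, was present in 5 of the 28 (17.9%), namely Mdm2, Plk2, Rrm2b, Tnfrsf10b and Trp53inp1, against 7.44% of all. Their median log2 fold change was -0.15, against 0.15 for the 23 genes without it. Over all tested genes these medians were -0.09 and 0.00. The median of -0.15 is the value of Plk2 itself, whose interval ran from -2.93 to 2.63. Mdm2 and Rrm2b were at -0.31 and -0.50, whereas Tnfrsf10b and Trp53inp1 were at 0.30 and 0.34. The nonamer genes thus went in both directions, and whether the medians differ was not tested. The Pumilio motif TGTANATA was present in 6 of the 28 (21.4%), among them Apaf1, Zmat3 and Trp53inp1 with 3, 4 and 4 copies, against 24.4% of all. The median log2 fold change was 0.23 with the motif and 0.10 without. Over all tested genes the order was the other way, at -0.048 with it and 0.009 without. Aen and Zmat3 were at -0.36 and -0.31, whereas Apaf1, Cdkn1a, Pmaip1 and Trp53inp1 were at 0.41, 0.13, 0.36 and 0.34. The motif genes too went in both directions, and whether these medians differ was not tested. Phlda3, Xpc, Pml and Trp53 held neither motif. These counts describe the annotated transcripts, and which 3′ ends the cells used was not measured here.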

How the data were processed

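RNA of B220+CD43+ pro-B cells was measured in 2 Cnot3 fl/fl and 2 Cnot3 +/+ libraries, grouped and numbered by their titles. Per the labels' protocols, a stranded mRNA kit was used with PCR amplification. The submitters' processing notes list Cuffnorm and Cufflinks (both 2.2.1), TopHat2 2.0.13, Bowtie2 2.2.3.0, bcl2fastq 1.8.4 and the build mm9. Annotation, strand setting and scaling are not given there. Per the file headers, the authors deposited FPKM for each library. Their own comparison table holds 1 FPKM for each genotype, with the authors' p-value and q-value. Its genotype FPKM differed from the average of the matching libraries by under 0.1% in 99.9% of cases.

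FPKM were transformed to log2(FPKM + 1), which understates the change of low genes. The 11017 genes averaging 1 FPKM or more over the 4 libraries entered limma 3.58.1 (R 4.3.3). The model had genotype alone, eBayes moderation used the mean-variance trend, and two-sided p-values were adjusted by Benjamini-Hochberg over every gene tested. The fit had 2 residual and 2.69 prior degrees of freedom. Folds in words are ratios of mean FPKM. The replicates are described as individual replicates, and p-values measure the spread between these libraries.

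The members and lists were chosen with earlier results of these data known. All members are named, and from each pathway list the called genes and up to 3 others with the smallest p, and from each marker list the 3 most abundant tested genes. Called markers are named as well. A few genes that these rules select are counted but not reported by name here. A few genes were added after their values were seen, as said beside them. Alternatives were other pseudocounts and filters, quantile normalization, equal median ratios, eBayes without the trend or robust, a replicate block and each library left out. No test on counts was run, because the values are not counts.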

Additional observations from a re-analysis of the deposited data

How the results depend on the processing

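The call counts depended on the processing. The p53 genes called higher, 4 in the main analysis, numbered 0 with no filter on low values and 0 without the eBayes trend. Those called lower, 0 in the main analysis, numbered 1 after quantile normalization (Mdm2) and 1 with robust eBayes (Rrm2b). Over all genes, the higher calls were 4 with no filter and 242 without the trend, and the lower calls 1 and 69. With no filter the upstream list had 0 genes higher and the further targets 0 higher and 0 lower. Without the trend the further targets had 1 higher and 0 lower, with robust eBayes the upstream list had 1 lower, and with a pseudocount of 5 the further targets had 1 lower.

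With 1 library left out, and the lone library of its genotype assumed to vary like the others, higher calls over all genes ranged from 2 to 18 and lower calls from 0 to 13. Calls were then 0 for the p53 genes, the upstream list and the further targets in each case, and the median log2 fold change of the p53 genes ranged from 0.038 to 0.21, the lowest without Cnot3 +/+ replicate 1.

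The replicate block gave 456 higher and 270 lower calls over all genes. Among the p53 genes 2 were then higher, Xpc and, gained, Sesn2 (adjusted p = 0.046), and the calls of Pml, Apaf1 and Phlda3 ended (adjusted p = 0.060, 0.064 and 0.058, limma). Among the further targets 3 were higher, Bbc3 gained (adjusted p = 0.040), and 1 lower. Same-numbered libraries deviated from their genotype means with a correlation of 0.14 across genes, and the labels do not say that the numbers pair mice.

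For single p53 genes, 314 of 359 alternative values kept direction and side of the threshold. Most of these belonged to uncalled genes that stayed uncalled, whereas every lost call was one of Xpc, Apaf1, Pml and Phlda3. Sesn1 was at -0.0084 after quantile normalization. Signs of uncalled genes also changed with 1 library left out. Cdkn1a ranged from -0.39 to 0.65, Plk2 from -1.37 to 1.07, Pmaip1 from -0.69 to 1.41, Sesn1 from -0.18 to 0.19 and Rps27l from -0.11 to 0.056. The absolute depth is unknown, so no detection limit is given for genes listed at 0.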
